A study of Salmo salar with 12 samples.

Results

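Broad unmethylated valleys are long stretches of the Atlantic salmon genome in which hardly any CpG cytosine carried a methyl group in the pituitary, the ovary or the liver. They were found by dividing each sequence of the genome assembly into tiles of 1 kb and pooling the reads of all 12 whole-genome bisulfite sequencing (WGBS) libraries in every tile with at least 5 listed CpG cytosines. The pooled CpG methylation level of a tile was the share of its reads that were methylated, and a valley was a run of at least 4 directly consecutive tiles that were each under 15%. This rule gave 586 valleys, which were 2.37% of the 24737 runs of tiles under 15%. They covered 3051 kb, or 8.76% of the 34831 tiles under 15% and 0.201% of the 1517602 tiles that could be scored. The other 24151 runs, called short runs here, were 1 to 3 tiles long. Low methylation and length chose the valleys, so both are given as descriptions with no test. The pooling over all tissues also limits how far the tissues can differ inside a valley, because a tile that was highly methylated in 1 tissue would have passed 15% and ended the run.

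In vertebrates most CpG cytosines of the genome are methylated, and the unmethylated ones lie mostly in short CpG-rich stretches at the starts of genes. In mammals and zebrafish, longer unmethylated stretches are known as DNA methylation valleys. There they often span genes for transcription factors that pattern the embryo, are shared by many tissues, and can be bound by the Polycomb proteins that keep such genes silent. No annotation of the assembly was used here, so the salmon valleys are given by position and no gene is assigned to any of them.

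The fish were female brood stock of a single population whose commitment to maturation was synchronised by photoperiod, and all of them were held under the same management. T4 was the last sampling, after the long-light period had begun, and T1 was the control sampling immediately before it. Pituitary, ovary and liver were each profiled at T4 and at T1, with 2 libraries in each of the 6 groups and 4 libraries per tissue. Each tissue was taken whole, so a level is a mean over its cell types, and a different mix of cells cannot be told apart from different methylation within cells. No fish was sampled at both T4 and T1, while several fish gave libraries of more than 1 tissue, so libraries of different tissues are not independent. The labels give no age for the individual fish, and the tissue labels were not checked against marker genes.

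Listed here are cytosines with at least 10 reads in a library, with the strands kept separate. A library listed between 9063730 and 12056957 CpG cytosines with 159785200 to 224866844 reads and a median of 14 or 15 reads per cytosine. Of the 21901728 cytosines listed in any library, 49426 lay in valleys, and 8630 of these were listed in all 12 libraries. Libraries were compared on these common cytosines, which had between 183839 and 248781 reads in a library, so that every library was read at the same positions. Reads per listed cytosine averaged 17.3 in valley tiles, against 16.8 in short runs and 18.5 in the remaining tiles. Positions with fewer than 10 reads are not listed, so these means cannot show whether valleys were read more thinly than the rest of the genome.

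Most valleys were close to the shortest length that the rule allowed. Of the 586 valleys, 293 (50%) were 4 kb long and 138 (23.5%) were 5 kb long. Another 61 were at least 8 kb and 25 were at least 10 kb, and the longest was 17 kb. The median length was 4.5 kb and the mean was 5.21 kb. A further 1101 runs had 3 tiles and just missed the length threshold.

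The pooled level of the valleys ran between 0.167% and 13.1%, with a median of 4.31% and quartiles of 3.00% and 6.30%. In 359 valleys it was under 5%, in 14 it was under 1%, and in 14 it was at least 10%. The highest tile of a valley had a median of 9.16%, and 45 valleys held a tile between 14% and 15%. The tiles nearest the threshold show that it divides a continuous range. Just inside it, the tile CM003292.1:43901001-43902000 stood at 14.99% over 6 cytosines. Just outside it, the tile CM003303.1:15056001-15057000 stood at 15.04% over 17 cytosines and ended a valley. Positions are those of the assembly ICSASG_v2, counted from 1.

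**Figure D1:**
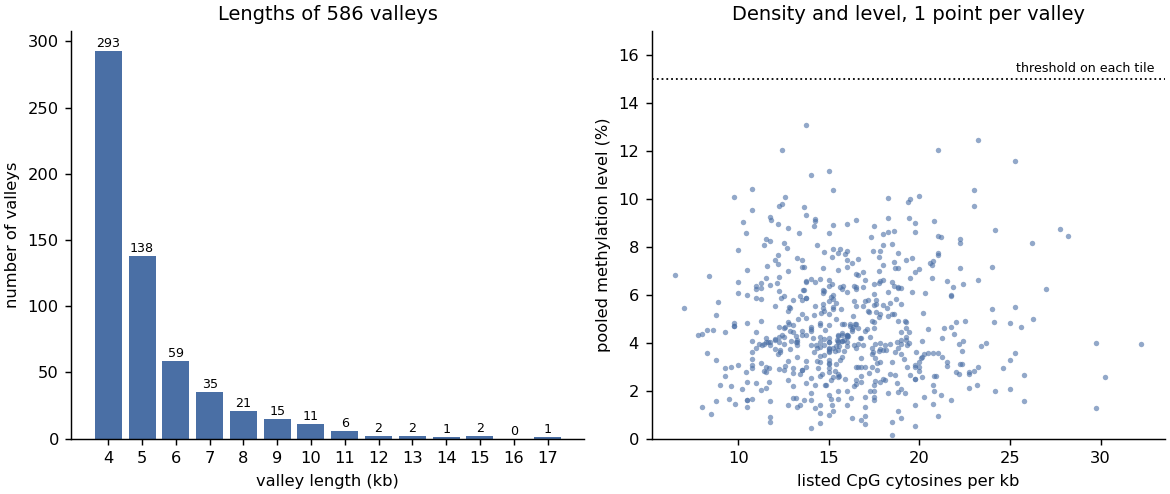
Number of valleys at each length in kb, as bars, and the pooled CpG methylation level in percent against listed CpG cytosines per kb, with 1 point per valley and the threshold on single tiles as a dotted line. Of the 586 valleys, 293 (50%) sit at the shortest length of 4 kb and 25 reach 10 kb or more, and the cloud of points shows no slope of the level with density (Spearman's rho 0.01).

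CpG density, counted as listed cytosines per kb, entered the rule through its minimum of 5 per tile, which also ends a run, so part of the difference in density from other tiles is set by the rule. A valley held a median of 77 listed cytosines, with a range of 26 to 300. Per kb this was a median of 15.7, quartiles of 13.25 and 18.6, and a range of 6.5 to 32.25. By tile, the median was 15 cytosines per kb in valleys, against 12 in short runs and 11 in the remaining tiles. Tiles with at least 30 cytosines made up 7.31% of valley tiles, against 3.69% of short-run tiles and 5.26% of the remaining tiles. At the sparse end, 23.9% of valley tiles had fewer than 10 cytosines, against 39.1% of all tiles. A valley was thus moderately rather than extremely CpG-rich. The density also depends on coverage, since a cytosine with fewer than 10 reads in every library is not listed. Coverage of the listed positions was alike, as 49.1% of the pairs of a cytosine and a library were listed in valleys, against 43.8% in short runs and 49.7% in the remaining tiles.

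Among the 586 valleys, density hardly moved with methylation. Spearman's rho was 0.01 between density and pooled level, 0.07 between length and pooled level, and 0.12 between length and density, given as descriptions over valleys that share the same libraries. The median density was 15 cytosines per kb in valleys of 4 kb, 16 in those of 5 kb, 16.25 in those of 6 to 7 kb, 16.8 in those of 8 to 9 kb and 17.1 in those of at least 10 kb. The median level of the same classes was 4.18%, 4.60%, 4.69%, 4.14% and 4.01%. The rule itself ties density to length, because a tile with fewer than 5 listed cytosines ends a run and sparse stretches cannot grow long. The small gain of density with length is therefore a description of the set, and the level did not follow length in either direction.

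Within the valleys, the level was lowest in the pituitary and highest in the liver. Over the common cytosines, pituitary libraries were at 3.99% and 4.01% at T4 and at 4.03% and 4.27% at T1. Ovary libraries were at 4.71% and 4.61% at T4 and at 4.66% and 4.68% at T1. Liver libraries were at 5.37% and 5.38% at T4 and at 5.42% and 5.05% at T1. The 4 libraries of each tissue did not overlap with those of either other tissue.

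The tissue means were 4.08% ± 0.131 in pituitary, 4.66% ± 0.0419 in ovary and 5.30% ± 0.173 in liver (SD, n = 4 each). The mean difference was −0.64 percentage points for ovary minus liver, −1.23 for pituitary minus liver and −0.59 for pituitary minus ovary. These means are over regions chosen from the same libraries and are given with no test. Over the 1389 common cytosines with at least 20 reads in every library, ovary libraries (4.47% to 5.03%) and liver libraries (4.73% to 5.44%) overlapped, and the pituitary stayed below both at 3.67% to 3.99%. Outside the valleys the order was not the same. In short runs the means were 4.18% ± 0.147 in pituitary, 4.27% ± 0.204 in ovary and 5.22% ± 0.0644 in liver, with pituitary and ovary libraries overlapping. In the remaining tiles they were 81.0% ± 0.337 in pituitary, 79.3% ± 0.465 in ovary and 83.1% ± 0.0216 in liver. The ovary was thus the lowest tissue in the bulk of the genome and the middle one in the valleys, while the liver was the highest in all 3 classes. A C that escapes bisulfite conversion is also counted as methylated, and its part in the difference of valleys and short runs between tissues was not tested.

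**Figure D2:**
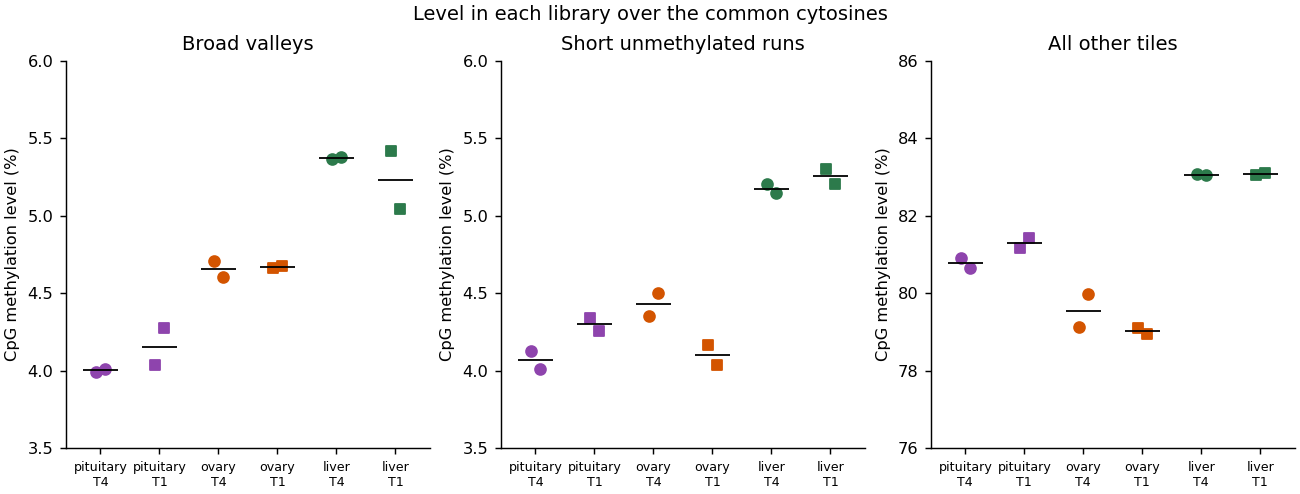
CpG methylation level in percent over the common cytosines of valleys, short runs and the remaining tiles, with 1 point per library, tissues on the x axis and T4 beside T1. In valleys the pituitary libraries lie between 3.99% and 4.27%, the ovary libraries between 4.61% and 4.71% and the liver libraries between 5.05% and 5.42%, while in the remaining tiles the ovary is the lowest tissue at 79.3%.

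Between T4 and T1 the valleys as a whole stayed at nearly the same level. The group means were 4.00% ± 0.0141 at T4 and 4.15% ± 0.168 at T1 in pituitary, 4.66% ± 0.0705 at T4 and 4.67% ± 0.00888 at T1 in ovary, and 5.37% ± 0.00535 at T4 and 5.23% ± 0.265 at T1 in liver (SD, n = 2 each). T4 minus T1 was −0.15 percentage points in pituitary, −0.01 in ovary and 0.14 in liver. In the pituitary and the liver this difference was smaller than the SD of the T1 libraries but larger than the SD at T4. In the ovary it was smaller than the SD at T4 but larger than the SD at T1. An SD of 2 libraries is too rough to judge these differences by.

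The order of the tissues held for many valleys but not for all. The levels here are over the cytosines that each library listed, which differ between libraries. The liver had the highest level in 295 valleys (50.3%), the pituitary in 147 and the ovary in 144. The pituitary had the lowest level in 284 valleys (48.5%), the ovary in 201 and the liver in 101. Across valleys the median level was 3.65% in pituitary, 3.85% in ovary and 4.75% in liver. Even in single tissues nearly all valleys stayed low, with 8 valleys at 15% or more in pituitary, 12 in ovary and 6 in liver. The highest valley stood at 18.6% in pituitary, 21.2% in ovary and 24.8% in liver.

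Single valleys varied more between libraries than their sum did. In the 162 valleys with at least 20 common cytosines, the 2 libraries of a group differed by a median of 0.877 to 1.20 percentage points. The difference of the group means at T4 and T1 had a median size of 0.809 points in pituitary, 0.853 in ovary and 0.964 in liver, which is within that spread. Differences between tissue means had a median size of 1.46 points for ovary and liver, 1.66 for pituitary and liver and 0.887 for pituitary and ovary. A difference of 2 means and a difference of 2 single libraries do not carry the same error, so these sizes are set side by side with no test. Over the listed cytosines of all 586 valleys, which differ between libraries, the level was higher at T4 than at T1 in 261 valleys in pituitary, 335 in ovary and 312 in liver. The difference was over 5 points in either direction in 25, 39 and 32 valleys of the pituitary, ovary and liver.

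When the rule was applied to each tissue alone, it gave 511 valleys over 2604 kb in pituitary, 420 over 2080 kb in ovary and 396 over 2003 kb in liver. Of the 586 pooled valleys, 371 (63.3%) overlapped a pituitary valley, 359 (61.3%) an ovary valley and 328 (56.0%) a liver valley. Conversely, 73.2% of pituitary valleys, 86.2% of ovary valleys and 83.3% of liver valleys overlapped a pooled one, which left 137 pituitary, 58 ovary and 66 liver valleys outside the pooled set. These counts also move with coverage, since a single tissue lists fewer cytosines and a tile below 5 cytosines ends a run. By tile, 2677 of the 3051 valley tiles (87.7%) reached 15% in no tissue. The pooled valley tiles at 15% or more numbered 132 in pituitary, 126 in ovary and 143 in liver, and those at 30% or more numbered 4, 8 and 12. Most of these tiles were high in a single tissue, as 119 passed 15% in the pituitary only, 108 in the ovary only and 120 in the liver only.

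At the level of single cytosines the valleys were close to unmethylated. Of 23447 valley cytosines listed in at least 6 libraries, 69.2% had a pooled level under 5% and 3433 (14.6%) had no methylated read in any of them. By comparison, 2.31% of the 10317941 such cytosines of the genome were under 5% and 92.4% were at 50% or more. Among cytosines listed in all 4 libraries of a tissue, no methylated read was seen at 30.9% (4354 of 14110) in pituitary, 29.7% (3619 of 12205) in ovary and 23.6% (2945 of 12470) in liver. The medians were 1.85% in pituitary, 2.08% in ovary and 2.86% in liver, which is the same order as that of the means. At these depths a cytosine without a methylated read can still have a level of several percent.

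Methylated cytosines inside valleys were rare and lay mostly near the ends. Only 49 of the 23447 cytosines (0.209%) were at 50% or more, and they fell in 41 valleys. Of these 49, 69.4% lay within 500 bp of a valley end, where 13.9% of all the valley cytosines lay. Another 12, in 12 different valleys, lay more than 1 kb inside.

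The ends of a valley were of different kinds. Of the 1172 ends, 619 (52.8%) were set by a scored tile at 15% or more and 553 by a tile with fewer than 5 listed cytosines, so these 553 ends mark where the data stop and not where methylation begins. In 373 of those 553 the next tile beyond could be scored, and 156 of these were again under 15%, so the stretch may go on past the gap. Both ends were scored in 163 valleys, 1 end in 293 and neither in 130. The median length was 4 kb with both ends scored and 5 kb with neither.

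Where the end was scored, the step in methylation was often large but its height varied widely. The ending tile had a median level of 55.0%, quartiles of 26.1% and 80.6% and a range of 15.04% to 95.6%. It was at 70% or more at 243 ends (39.3%) and under 30% at 174 (28.1%), of which 81 were under 20%. Inside the ends, here taken over all 1172 whether scored or not, the level was already low. The outermost valley tile averaged 5.28% ± 0.212 in pituitary, 5.37% ± 0.120 in ovary and 5.92% ± 0.127 in liver, and the next tile inward 3.77% ± 0.138, 4.27% ± 0.163 and 5.08% ± 0.179 in the same tissues (SD over 4 libraries). At the 619 scored ends, the first tile outside averaged 53.7% ± 0.823 in pituitary, 55.3% ± 1.68 in ovary and 55.8% ± 1.85 in liver.

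Further out, most tiles were highly methylated, while the mean stayed below the median. Counting tiles of every class, the median pooled level was 71.3% in the second tile outside and 81.5% in the tenth. The mean of the tenth tile was 66.7% in pituitary, 67.6% in ovary and 68.4% in liver. In bins of 100 bp around all 1172 ends, scored or not, the liver level was 10.1% in the last bin inside. It was 28.6% in the first bin outside, 41.8% in the second, 46.6% in the third and 53.2% in the fourth. A level of 50% was first met in the bin that starts 400 bp outside in the pituitary and 300 bp outside in the ovary and the liver. A level of 60% was first met at 700 bp in the pituitary and at 500 bp in the ovary and the liver. The rise was thus alike in the 3 tissues. From the bin that starts at 900 bp to the one that starts at 1000 bp, the level fell back in all of them. The pituitary went from 62.3% to 51.3%, the ovary from 63.7% to 52.9% and the liver from 65.5% to 54.0%. This fall lies at the border between the first and second tiles outside. At scored ends the first tile had to reach the threshold, while the second could be of any class. The first tile was scored at 619 ends and the second at 823, so the ends differ as well. How far the fall follows from this was not tested. Every scored end was placed by the level pooled over the tissues, with an ending tile at or above the threshold. The rule therefore sets the shared position of the step and part of its height. Whether the tissues share their ends cannot be read from this profile.

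**Figure D3:**
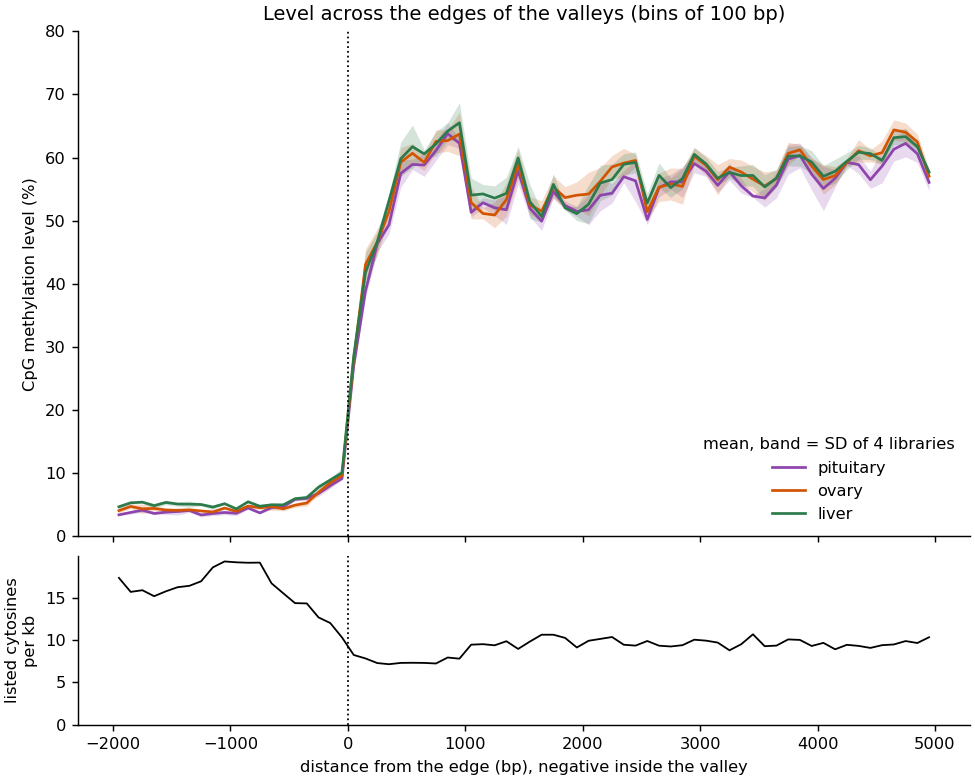
CpG methylation level in percent and listed cytosines per kb, in bins of 100 bp by distance from all 1172 valley ends, scored or not. There is 1 line per tissue, with bands for the SD over 4 libraries and negative distances inside the valley. Of these ends, 553 were set by a tile with too few listed cytosines to be scored. Part of the fall in density outside the ends is therefore set by the rule. The liver line climbs to 28.6% in the first 100 bp outside, against 10.1% in the last 100 bp inside, and all 3 tissues pass 50% within the first 500 bp outside.

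Valleys lay on all 29 chromosome sequences, with 577 of the 586 there and 9 on other sequences. CM003281.1 held 3.89 valleys per 10 Mb (36 valleys) and CM003280.1 held 3.84 (28 valleys), against a median of 2.37 over the chromosomes. CM003285.1 held the fewest, 1.19 per 10 Mb (7 valleys). Neighbouring valleys on a chromosome were a median of 1924 kb apart, but 72 of the 548 gaps were at most 10 kb. Joined over such gaps, 124 valleys formed 52 clusters, of which 10 had at least 3 valleys and 4 had at least 4.

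The largest cluster, CM003293.1:88524001-88585000, had 7 valleys that filled 43 of its 61 kb at 2.48% to 7.74%, with 17.1% in the tiles between them. The cluster CM003291.1:35560001-35604000 had 6 valleys over 34 of 44 kb at 2.60% to 7.29%, with 21.6% between them. In CM003290.1:54214001-54262000, 5 valleys filled 39 of 48 kb at 2.98% to 7.33%, with 11.1% between them. The levels between the valleys of these 3 clusters are pooled over 16, 9 and 7 tiles and do not show how single tiles stood. The last of the 4, CM003292.1:79905001-79942000, had 4 valleys over 25 of 37 kb at 1.75% to 6.82%, with 45.5% between them.

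The longest valleys show how the tissues differed over many cytosines. The valley CM003300.1:32630001-32647000 spanned 17 kb with 243 listed cytosines, a pooled level of 3.93% and no tile above 10.2%. Over its listed cytosines the pituitary was at 2.24% and 3.06% at T4 and at 2.27% and 2.49% at T1. The ovary was at 2.55% and 3.85% at T4 and at 4.72% and 4.14% at T1, and the liver at 6.66% and 4.85% at T4 and at 5.58% and 5.25% at T1. Every liver library was above every ovary and pituitary library. In edgeR's quasi-likelihood test on the summed reads of 28 common cytosines, the log2 odds ratio was −1.84 for pituitary minus liver (adjusted p = 6.2e-05) and −0.95 for ovary minus liver (adjusted p = 0.0146).

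Over their listed cytosines, the remaining long valleys did not all share that order. CM003299.1:16565001-16580000 (15 kb, 200 cytosines, pooled level 8.60%) stood at 4.74% to 8.56% in the pituitary and 4.97% to 8.75% in the ovary, below the liver at 10.6% to 12.7%. Over its 19 common cytosines the ovary (2.09% to 8.03%) overlapped with the liver (5.81% to 8.39%), and the pituitary was at 2.01% to 5.64%. CM003307.1:10054001-10068000 (14 kb, 240 cytosines, 5.32%) was likewise highest in the liver, at 6.93% to 7.28%, against 4.14% to 4.88% in the pituitary and 3.51% to 5.85% in the ovary. CM003303.1:14358001-14371000 (13 kb, 209 cytosines, 4.27%) was at 2.16% to 3.52% in the pituitary, below the liver at 4.21% to 8.08%. In CM003302.1:11412001-11425000 (13 kb, 197 cytosines, 6.46%) the ovary had the highest mean, at 13.0% and 12.2% at T4 and at 8.09% and 6.87% at T1. Over its 14 common cytosines the ovary was at 10.4% and 11.7% at T4. There it was at 2.70% and 4.21% at T1 and overlapped with both other tissues at T1. In the edgeR test, T4 minus T1 averaged over the tissues passed for this valley (log2 odds ratio 1.10, adjusted p = 0.0362), a call lost in 12 of 17 alternatives. In CM003286.1:14967001-14979000 (12 kb, 224 cytosines, 3.62%) the pituitary had the highest mean, 4.72% ± 1.03, against 2.92% ± 0.694 in the ovary and 3.25% ± 0.705 in the liver (SD, n = 4 each). The tissue that was highest therefore changed from valley to valley.

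Of the 8 longest valleys, 5 passed the same test for pituitary minus liver, where 19.4% of all units tested (valleys and the tiles outside them) passed. Another 4 calls were made for ovary minus liver, where 19.3% of all units passed, and 1 for pituitary minus ovary, where 20.9% passed. For pituitary minus liver the log2 odds ratio was −1.15 in the 15 kb valley CM003299.1:16565001-16580000 (adjusted p = 0.00904), −1.12 in CM003307.1:10054001-10068000 (adjusted p = 0.000962) and −1.30 in CM003303.1:14358001-14371000 (adjusted p = 0.00028). It had the other sign in CM003286.1:14967001-14979000, at 0.80 (adjusted p = 0.00377). CM003290.1:54241001-54256000 (15 kb, 220 cytosines, 5.47%) passed in no pair of tissues, with means of 3.77% ± 0.625 in pituitary, 6.52% ± 0.511 in ovary and 6.17% ± 0.727 in liver. CM003281.1:55724001-55736000 had the most listed cytosines, 300 in 12 kb, of which 100 were common. It was at 4.84% in the pool, against 70.7% and 89.4% in the tiles that ended it. Its ovary was lower than its liver, with a log2 odds ratio of −0.46 (adjusted p = 0.00371).

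Some valleys mark the limits of the set, and their levels are given over the listed cytosines. The densest was CM003294.1:73527001-73531000, with 32.25 cytosines per kb and 3.97%. The sparsest was AGKD04022632.1:5001-9000, with 26 cytosines over 4 kb and 6.85%. In it replicate 2 at T1 stood at 14.7% in pituitary, 10.5% in ovary and 16.6% in liver, while all the other libraries were between 2.49% and 7.46%. By the fish codes of the labels, this replicate was the same fish in pituitary and liver but another in ovary. The listed cytosines differ between libraries. Over the 2 common cytosines of this valley no library was above 6.67%, and replicate 2 at T1 did not stand apart. The lowest was CM003281.1:65633001-65637000, at 0.167% over 74 cytosines, with no library above 0.487%. The highest was CM003285.1:39825001-39829000, at 13.1% over 55 cytosines, with libraries between 6.97% and 19.8% and no order of tissues.

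A few valleys leaned strongly to 1 tissue. They were chosen for this difference among valleys with at least 20 common cytosines, so their levels over the common cytosines are descriptions with no test. CM003281.1:24764001-24768000 was methylated in the liver, at 30.9% and 24.4% at T4 and at 22.4% and 18.0% at T1, against 1.99% to 2.92% in the pituitary and 3.30% to 4.64% in the ovary. CM003279.1:128149001-128154000 was also highest in the liver, at 13.0% and 12.0% at T4 and at 16.0% and 13.9% at T1. CM003281.1:8491001-8495000 was methylated in the ovary, at 24.7% and 16.7% at T4 and at 23.0% and 19.6% at T1, while the pituitary stood at 2.20% to 3.81% and the liver at 2.92% to 5.21%. In each of the 3, the high tissue did not overlap with either other tissue.

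In the pituitary, CM003303.1:10876001-10881000 stood at 12.0% and 13.8% at T4 and at 10.9% and 13.9% at T1, against 2.86% to 4.74% in the ovary and 2.45% to 6.49% in the liver. CM003287.1:16555001-16565000, a valley of 10 kb, was at 10.4% and 9.11% at T4 and at 12.2% and 6.02% at T1 in the pituitary, against 0.20% to 1.64% in the ovary and 1.05% to 4.26% in the liver. Other valleys were set apart by a tissue that was lower than the rest. CM003282.1:77330001-77336000 stood at 2.46% to 3.93% in the pituitary, against 13.5% to 20.4% in the ovary and 9.37% to 14.1% in the liver. CM003299.1:49046001-49051000 stood at 1.49% to 3.77% in the ovary, against 8.24% to 14.1% in the pituitary and 5.54% to 13.7% in the liver. CM003280.1:825001-830000 was lowest in the liver, at 1.63% to 6.15%, against 8.28% to 19.4% in the pituitary and 4.58% to 9.53% in the ovary, where the 2 ovary T1 libraries overlapped with the liver. The valley CM003293.1:88524001-88529000, methylated in the ovary at T1, is described with the time points.

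**Figure D4:**
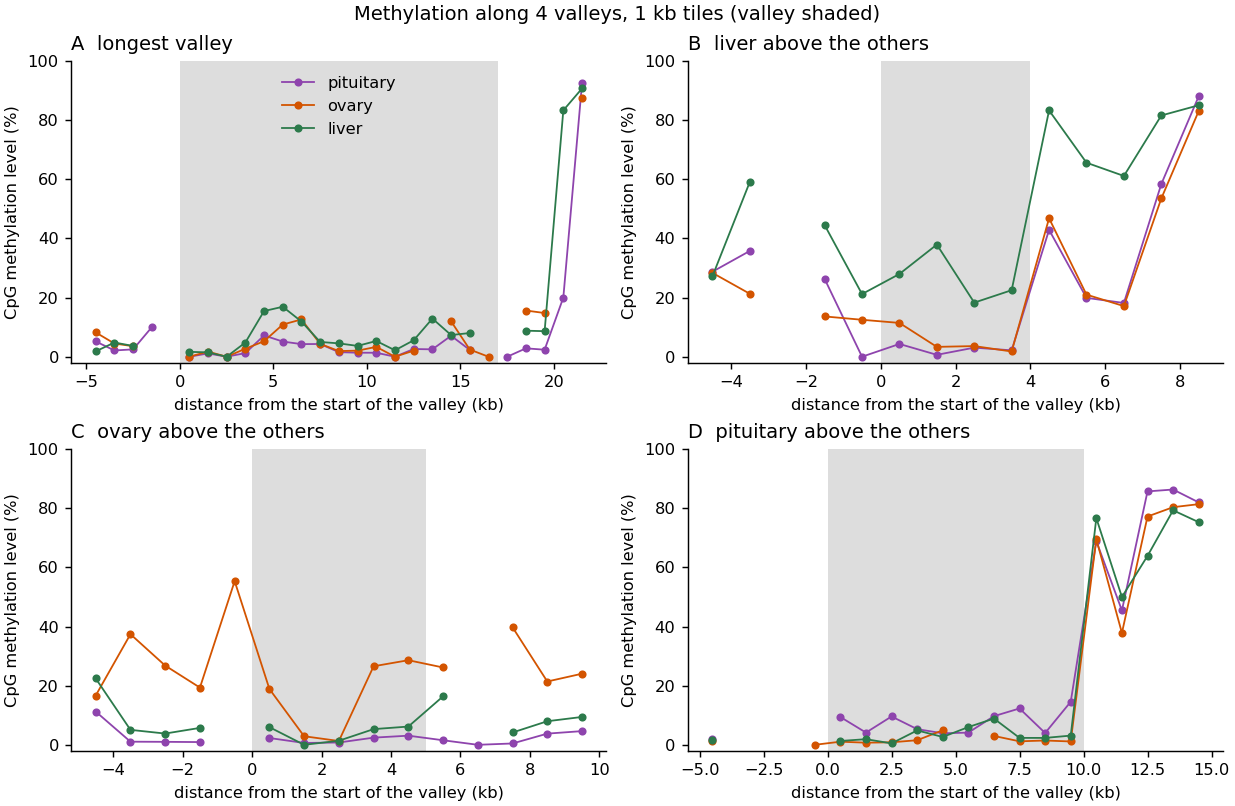
Mean CpG methylation level in percent by 1 kb tile in each tissue, by distance in kb from the start of the valley, in the longest valley (A) and in 3 valleys chosen for leaning to the liver (B, CM003281.1:24764001-24768000), the ovary (C, CM003293.1:88524001-88529000) and the pituitary (D, CM003287.1:16555001-16565000), with the valley shaded and gaps where a tile had no value. The longest valley stays low over all of its 17 kb in every tissue, while in the other panels a single tissue is raised, as in the liver in panel B with library levels of 18.0% to 30.9%. In panel C the ovary mean joins both times. Over the common cytosines of that valley the ovary was at 26.6% and 34.2% at T1 and at 8.99% and 6.47% at T4.

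For tests, the reads of common cytosines were summed by tile, and methylated against unmethylated reads were compared over the libraries with edgeR's quasi-likelihood F test. All 495114 tiles of the genome with at least 3 common cytosines entered the fit, and p-values were adjusted over all of them by the Benjamini-Hochberg method with a threshold of 0.05. Of the 3051 valley tiles, 1140 could be tested and 1911 had too few common cytosines. The p-values measure the spread between these libraries, 2 to a group.

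Between tissues, many valley tiles differed. For ovary minus liver, 203 of the 1140 valley tiles passed, 61 higher and 142 lower in the ovary, where 19.3% of all tiles passed, 2.51% higher and 16.8% lower. For pituitary minus liver, 264 passed, 62 higher and 202 lower in the pituitary, where 19.4% of all tiles passed, 5.51% higher and 13.9% lower. For pituitary minus ovary, 188 passed, 72 higher and 116 lower in the pituitary, where 20.9% of all tiles passed, 13.1% higher and 7.7% lower. As a share, 17.8%, 23.2% and 16.5% of the valley tiles passed in the 3 pairs, so the shares were near those of all tiles.

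The directions differed more. The median over valley tiles was −0.73 percentage points for ovary minus liver, against −1.66 over all tiles. It was −1.08 for pituitary minus liver, against −0.10 over all tiles, and −0.22 for pituitary minus ovary, against 1.42 over all tiles. Between pituitary and ovary the valley tiles thus leaned down in the pituitary while the genome leaned up. Methylated and unmethylated tiles have different room to move in either direction, and the valleys were not compared with other low tiles by a test. Among short-run tiles, 469 were higher and 618 lower in the pituitary than in the ovary.

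With the reads of each valley summed as 1 unit, 520 valleys had at least 3 common cytosines and 66 could not be tested. This unit was chosen after the tile results had been seen. For ovary minus liver 140 valleys passed, 40 higher and 100 lower, for pituitary minus liver 186 passed, 39 higher and 147 lower, and for pituitary minus ovary 128 passed, 53 higher and 75 lower. Of all units tested, 19.3%, 19.4% and 20.9% passed in the same pairs. Valleys have more reads than single tiles, which bears on their share of calls.

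The valley tiles with the smallest p-values between tissues were each raised or lowered in all 4 libraries of 1 tissue. The tile CM003281.1:24767001-24768000 (16 common cytosines) was at 31.4% and 23.2% at T4 and at 20.04% and 17.7% at T1 in the liver, while every pituitary and ovary library was between 0.735% and 2.74%. Its log2 odds ratio was −4.02 for ovary minus liver (adjusted p = 1.75e-09) and −3.95 for pituitary minus liver (adjusted p = 3.14e-10). The tile CM003281.1:8492001-8493000 (10 common cytosines) was at 37.4% and 21.8% at T4 and at 31.9% and 25.1% at T1 in the ovary, while every pituitary and liver library was between 1.40% and 3.59%. Here the log2 odds ratio was 3.84 for ovary minus liver (adjusted p = 4.64e-09) and −4.01 for pituitary minus ovary (adjusted p = 2.91e-09). In CM003279.1:108292001-108293000, with 27 common cytosines, the ovary stood at 13.6% and 9.48% at T4 and at 7.17% and 19.5% at T1. The other tissues did not overlap with it, at 1.23% to 3.64%, and ovary minus liver had a log2 odds ratio of 2.72 (adjusted p = 4.38e-07).

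Pituitary tiles showed the same kind of pattern. CM003302.1:25682001-25683000 (6 common cytosines) was at 35.3% and 34.4% at T4 and at 22.7% and 19.8% at T1 in the pituitary, against 4.23% to 5.99% in the ovary and 1.25% to 1.82% in the liver. Pituitary minus liver had a log2 odds ratio of 4.64 (adjusted p = 2.15e-10). CM003287.1:138656001-138657000 (8 common cytosines) was at 27.2% and 39.0% at T4 and at 21.7% and 26.1% at T1 in the pituitary, against 2.01% to 3.41% in the ovary and 4.35% to 6.16% in the liver, with a log2 odds ratio of 3.91 for pituitary minus ovary (adjusted p = 1.53e-09). In CM003288.1:93758001-93759000 the pituitary was instead the lowest, at 1.67% to 4.60%, against 8.81% to 14.8% in the ovary and 13.5% to 21.0% in the liver. Its log2 odds ratio was −2.45 for pituitary minus liver (adjusted p = 5.76e-09). That tile had up to 1996 reads in a library over 11 cytosines, far above the usual depth, and the part of this depth in its level was not tested.

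Some tiles at the valley ends also differed between tissues. Of the 209 testable ending tiles, 51 (24.4%) passed for ovary minus liver, where 19.3% of all tiles passed. For pituitary minus liver 59 (28.2%) passed, where 19.4% of all tiles did, and for pituitary minus ovary 54 (25.8%) passed, where 20.9% did. CM003285.1:19619001-19620000 was at 37.4% to 47.3% in the ovary, against 88.4% to 92.4% in the pituitary and 87.0% to 95.7% in the liver (ovary minus liver, log2 odds ratio −3.66, adjusted p = 2.17e-09). CM003292.1:11859001-11860000 was at 11.4% to 16.0% in the pituitary, against 56.0% to 73.3% in the ovary and 74.8% to 86.7% in the liver (pituitary minus liver, −4.89, adjusted p = 1.4e-11). The pituitary thus stayed under or near 15% in a tile that ended the pooled valley. CM003303.1:15051001-15052000 was at 8.29% to 12.2% in the pituitary, against 63.1% to 72.0% in the ovary and 20.6% to 33.9% in the liver (pituitary minus ovary, −4.33, adjusted p = 7.1e-11). In CM003302.1:25678001-25679000, the tile before the valley whose last tile is the pituitary tile CM003302.1:25682001-25683000 given above, the pituitary was at 42.5% to 54.6%, against 6.32% to 18.5% in the ovary and 0.901% to 5.88% in the liver (pituitary minus liver, 4.86, adjusted p = 2.71e-09).

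Between T4 and T1 few valley tiles passed the test. In the pituitary 5 of the 1140 valley tiles passed, of which 3 rose and 2 fell, where 0.0424% of all tiles passed, 0.018% higher and 0.0244% lower. In the ovary 9 passed, of which 3 rose and 6 fell, where 0.0996% of all tiles passed, 0.0772% higher and 0.0224% lower. In the liver 1 passed, higher at T4, where 0.0378% of all tiles passed, 0.018% higher. As a share, 0.439%, 0.789% and 0.0877% of the valley tiles passed in the pituitary, ovary and liver, above the shares of all tiles. The median difference over valley tiles was −0.02 percentage points in pituitary, 0.16 in ovary and 0.13 in liver. These counts rest on single libraries. In the pituitary 0 passed without T1 replicate 1, T1 replicate 2 or T4 replicate 2 and 1 without T4 replicate 1. In the ovary 0 passed without T1 replicate 2 and 1 without T4 replicate 2, and in the liver 0 passed without T1 replicate 1 or T4 replicate 1. The limma test passed 0 valley tiles in each of the tissues. An unadjusted edgeR p under 0.05 was found for 134, 139 and 127 of the 1140 in the pituitary, ovary and liver. Of all 495114 tiles tested, 28164, 40872 and 25665 had such a p in the same tissues, a smaller share in each. The dispersion of the fit was estimated on tiles of the whole genome and not on low tiles alone. Its part in these shares was not tested.

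Averaged over the 3 tissues, 12 valley tiles passed, 6 higher and 6 lower at T4, where 0.484% of all tiles passed, 0.233% higher and 0.251% lower. This average uses fish that gave several tissues, and T4 and T1 are different fish, so the sampled fish and the times cannot be told apart. The fit took the libraries as independent, so a fish can count more than once and the averaged p-values can be too small. No fish block was fitted for the time points. Leaving out 1 library gave between 7 and 16 valley tiles, with the lowest number without liver T4 replicate 2.

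The 2 valley tiles with the smallest p in the average were higher at T4 in all tissues. CM003297.1:81580001-81581000 lies in the valley CM003297.1:81576001-81582000 and had 4 common cytosines with 95 to 232 reads in a library. It was at 21.2% and 32.6% at T4 and at 3.73% and 3.05% at T1 in pituitary, at 24.2% and 26.0% at T4 and at 4.20% and 5.21% at T1 in ovary, and at 22.6% and 30.5% at T4 and at 5.10% and 5.60% at T1 in liver. Every T4 library was above every T1 library. The log2 odds ratio was 3.33 in the pituitary (adjusted p = 0.00609), 2.75 in the ovary (adjusted p = 0.0286), 2.63 in the liver (adjusted p = 0.0205) and 2.90 averaged over the tissues (adjusted p = 3.25e-06). The liver tile is the only valley tile that passed in that tissue.

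CM003284.1:42097001-42098000 (7 common cytosines, 128 to 173 reads) was at 16.8% and 18.4% at T4 and at 1.83% and 2.08% at T1 in the pituitary. It was at 20.3% and 25.2% at T4 and at 3.14% and 1.97% at T1 in the ovary, and at 25.5% and 28.1% at T4 and at 13.5% and 4.32% at T1 in the liver. Again no T1 library reached a T4 library. Averaged over the tissues the log2 odds ratio was 2.90 (adjusted p = 1.49e-05), and the pituitary (3.37, adjusted p = 0.0263) and the ovary (3.44, adjusted p = 0.011) passed on their own.

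The opposite direction in all tissues was seen in CM003305.1:7661001-7662000, the last tile of a valley of 6 kb, with 4 common cytosines and 49 to 81 reads. The pituitary had 2.82% at T4 replicate 1 and 0 methylated reads of 56 at T4 replicate 2, which allows a level of up to 5.36%, against 30.7% and 14.9% at T1. The ovary was at 7.58% and 6.76% at T4 and at 36.7% and 26.6% at T1, and the liver at 13.4% and 10.2% at T4 and at 40.8% and 21.0% at T1. All T1 libraries were above all T4 libraries. The log2 odds ratio averaged over the tissues was −2.73 (adjusted p = 0.00195), and no single tissue passed. These 3 tiles kept their calls in the averaged comparison under each alternative setting that could be fitted. None of those settings had a fish block.

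The other valley tiles that passed in the average were CM003281.1:55774001-55775000, CM003284.1:31849001-31850000, CM003288.1:93757001-93758000 and CM003307.1:9742001-9743000, which were higher at T4. Lower at T4 were CM003293.1:15483001-15484000, CM003284.1:35976001-35977000, CM003301.1:25933001-25934000, CM003279.1:108297001-108298000 and CM003287.1:32903001-32904000. Their log2 odds ratios ran between −3.66 and 5.36, and adjusted p-values between 0.00382 and 0.0471. Several of these calls depended on the setting. The call was lost in 13 of 17 alternatives in CM003279.1:108297001-108298000, in 12 of 16 in CM003287.1:32903001-32904000, in 11 of 15 in CM003301.1:25933001-25934000, in 11 of 16 in CM003307.1:9742001-9743000 and in 7 of 15 in CM003284.1:35976001-35977000, where the log2 odds ratio came as near to 0 as −0.21. The remaining 4 lost theirs in 1 or 2 alternatives. Of these, CM003288.1:93757001-93758000 had 626 to 3028 reads in a library over 14 cytosines, far above the usual depth. Its ovary T1 replicate 2, at 16.4%, was above every T4 library. CM003281.1:55774001-55775000 rests on 3 cytosines with 33 to 67 reads in a library.

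**Figure D5:**
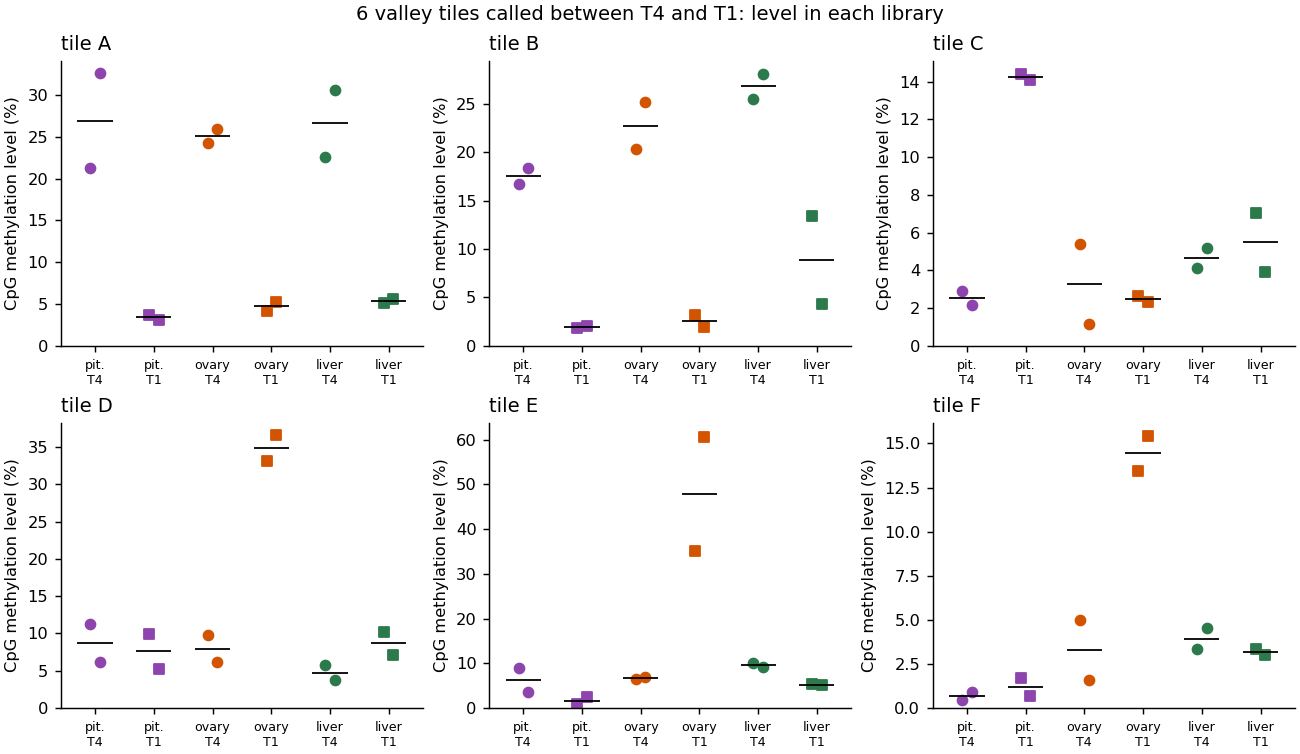
CpG methylation level in percent over the common cytosines of 6 valley tiles (A, CM003297.1:81580001-81581000, B, CM003284.1:42097001-42098000, C, CM003279.1:83792001-83793000, D, CM003283.1:23888001-23889000, E, CM003293.1:88528001-88529000, F, CM003279.1:108296001-108297000), with 1 point per library by tissue, circles for T4, squares for T1 and black lines for the mean of the 2 libraries of a group. In tile A every T4 library lies between 21.2% and 32.6% and every T1 library at 5.60% or less in all 3 tissues, while in tile E only the ovary T1 libraries, at 35.1% and 60.7%, stand apart.

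In the 6 tiles that were lower at T4 in the ovary, both ovary T1 libraries were above all the other libraries. CM003293.1:88528001-88529000 (6 common cytosines, 88 to 163 reads) was at 6.52% and 6.86% at T4 and at 35.1% and 60.7% at T1 in the ovary, with a log2 odds ratio of −3.69 (adjusted p = 0.00596). The pituitary was at 0.787% to 8.82% and the liver at 5.03% to 10.1%. CM003283.1:23888001-23889000 was at 9.74% and 6.15% at T4 and at 33.2% and 36.6% at T1 in the ovary (−2.65, adjusted p = 0.0059), against 5.26% to 11.3% in the pituitary and 3.70% to 10.2% in the liver. The 10 other libraries were thus at 11.3% or less in both tiles. CM003279.1:108296001-108297000 rests on 39 common cytosines and 763 to 1141 reads per library. It was at 4.99% and 1.60% at T4 and at 13.5% and 15.4% at T1 in the ovary (−2.38, adjusted p = 0.00688), against 0.455% to 1.70% in the pituitary and 3.00% to 4.51% in the liver.

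Others of this kind were CM003291.1:35625001-35626000, at 4.84% and 14.2% at T4 and at 52.5% and 52.1% at T1 in the ovary, and CM003291.1:35661001-35662000, at 4.03% and 6.16% at T4 and at 26.8% and 31.0% at T1 in the ovary. CM003293.1:88524001-88525000, the other end of the valley of CM003293.1:88528001-88529000, was at 10.8% and 7.33% at T4 and at 29.6% and 28.1% at T1 in the ovary (log2 odds ratio −2.04, adjusted p = 0.0118). Pituitary minus ovary also passed in that tile, with a log2 odds ratio of −3.19 (adjusted p = 2.66e-08). The 3 tiles higher at T4 in the ovary were CM003284.1:42097001-42098000 and CM003297.1:81580001-81581000, given above, and CM003284.1:31849001-31850000. The last of these was at 6.12% and 6.93% at T4 and at 0.480% and 0.671% at T1 in the ovary (log2 odds ratio 3.55, adjusted p = 0.0118).

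In the pituitary, CM003279.1:83792001-83793000 was at 2.93% and 2.17% at T4 and at 14.4% and 14.1% at T1 (14 common cytosines, log2 odds ratio −2.64, adjusted p = 0.0214), against 1.16% to 5.40% in the ovary and 3.93% to 7.06% in the liver. CM003306.1:21388001-21389000 likewise was at 2.35% and 2.46% at T4 and at 12.1% and 11.4% at T1 in the pituitary (−2.39, adjusted p = 0.0428). CM003298.1:64500001-64501000 moved the other way, at 17.6% and 11.8% at T4 and at 3.41% and 1.67% at T1 in the pituitary (2.72, adjusted p = 0.0198). In that tile the ovary was at 5.33% and 4.74% at T4 and at 13.9% and 13.8% at T1, and the liver at 26.8% and 16.1% at T4 and at 33.1% and 26.7% at T1.

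As whole units, 4 valleys passed between T4 and T1 in the pituitary, of which 2 rose and 2 fell, where 0.0423% of all units passed. In the ovary 6 passed, 2 higher and 4 lower, where 0.0977% of all units passed. In the liver 0 of the 520 passed with edgeR, where 0.0376% of all units passed and 62 valleys had an unadjusted p under 0.05. Such a p was found for 25600 of all 494494 units. Averaged over the tissues 8 passed, 4 higher and 4 lower, where 0.484% of all units passed. In all, 9 different valleys passed in at least 1 tissue. With limma 0 valleys passed in each tissue and 2 in the average. Leaving out 1 library changed these counts as well. In the pituitary 2 valleys passed without T1 replicate 2 and 1 without each of the other libraries. In the ovary 2 passed without T1 replicate 2 and 1 without T4 replicate 2, and 5 without either remaining library. In the liver 1 passed without T4 replicate 2. The average gave 4 without pituitary T4 replicate 2, 5 without liver T4 replicate 2 and up to 8 otherwise.

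In the ovary, 4 whole valleys were lower at T4, and they differed in how far the T1 methylation reached beyond the called tiles. CM003293.1:88524001-88529000 was at 8.99% and 6.47% at T4 and at 26.6% and 34.2% at T1 in the ovary (24 common cytosines, log2 odds ratio −2.40, adjusted p = 0.00117). CM003283.1:23888001-23894000 was at 5.06% and 4.19% at T4 and at 18.5% and 19.95% at T1 (22 cytosines, −2.30, adjusted p = 0.00268), and CM003291.1:35659001-35665000 was at 2.81% and 7.14% at T4 and at 20.2% and 23.7% at T1 (18 cytosines, −2.43, adjusted p = 0.00398). CM003290.1:54214001-54219000 was at 7.61% and 8.50% at T4 and at 18.7% and 20% at T1 (29 cytosines, −1.45, adjusted p = 0.00691). In each of the 4 the ovary T1 libraries were above every other library.

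Outside its called tile, the ovary of CM003291.1:35659001-35665000 was at 2.07% and 7.66% at T4 and at 16.3% and 20.1% at T1 over 12 cytosines. In CM003283.1:23888001-23894000 the called tile held 81 of the 112 methylated reads of ovary T1 replicate 1, and the remaining 14 cytosines were at 1.45% and 2.56% at T4 and at 8.59% and 8.91% at T1 in the ovary. CM003290.1:54214001-54219000 had no called tile, so its call came from the sum alone. In CM003293.1:88524001-88529000 the 2 called tiles, at its ends, held 21 of the 24 common cytosines and all but 3 of the 202 methylated reads of ovary T1 replicate 2. The methylation at T1 thus went beyond the called tile in CM003291.1:35659001-35665000 and CM003283.1:23888001-23894000, while too few cytosines were left to read it in CM003293.1:88524001-88529000. These levels are given with no test.

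Of the 4 valleys, CM003293.1:88524001-88529000 and CM003290.1:54214001-54219000 are each the first valley of a large cluster. In the cluster CM003293.1:88524001-88585000, the listed level at T1 in the ovary was 26.8% in that first valley, while the median over its 7 valleys was 3.97%. In CM003290.1:54214001-54262000 it was 19.5% in the first valley, while the median over its 5 valleys was 4.74%. No other valley of these clusters was among the 6 that passed in the ovary. Near the cluster CM003291.1:35560001-35604000 but outside it, the valley CM003291.1:35621001-35626000 was at 3.99% and 5.14% at T4 and at 22.2% and 24.7% at T1 in the ovary over its listed cytosines, against 0.204% to 2.02% in the pituitary and 1.27% to 4.90% in the liver. Within that cluster the highest valley at T1 in the ovary stood at 11.6%. These valleys were picked out after their values had been seen.

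In the pituitary, the 9 kb valley CM003306.1:21381001-21390000 was at 1.90% and 2.75% at T4 and at 10.4% and 8.82% at T1 (35 common cytosines, log2 odds ratio −2.14, adjusted p = 0.002). CM003279.1:83789001-83793000 was at 2.48% and 2.25% at T4 and at 9.54% and 8.50% at T1 (28 cytosines, −2.02, adjusted p = 0.00832). The ovary and liver of both stayed between 2.71% and 6.49%. Outside its called tile, CM003306.1:21381001-21390000 was at 1.76% and 2.86% at T4 and at 9.78% and 7.73% at T1 in the pituitary, over 25 cytosines. In CM003279.1:83789001-83793000 the remaining 14 cytosines were at 1.60% and 2.34% at T4 and at 1.95% and 2.44% at T1, so there the difference lay in 1 tile. Higher at T4 in the pituitary were CM003284.1:42095001-42099000 (3.13, adjusted p = 0.0164), which also passed in the ovary (2.92, adjusted p = 0.0162), and CM003297.1:81576001-81582000 (2.16, adjusted p = 0.0101). In both, a single tile carried the sum. In pituitary T4 replicate 1 the called tile held 29 of the 33 methylated reads of CM003284.1:42095001-42099000 and 34 of the 38 of CM003297.1:81576001-81582000. Outside that tile, the pituitary of CM003297.1:81576001-81582000 was at 0.756% and 1.97% at T4 and at 0.828% and 1.55% at T1, so that the time points overlapped. Over the alternatives the log2 odds ratio of CM003284.1:42095001-42099000 went as low as 1.97 in the pituitary (adjusted p up to 0.911) and 0.37 in the ovary (adjusted p up to 0.981), and that of CM003297.1:81576001-81582000 as low as 1.08 in the pituitary (adjusted p up to 0.827).

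Of the 209 ending tiles tested between T4 and T1, 2 passed in the pituitary, where 0.0424% of all tiles passed, 3 in the ovary (0.0996% of all tiles), 1 in the liver (0.0378%) and 8 in the average (0.484%). These counts also rest on single libraries. In the pituitary 0 passed without T1 replicate 1 or T4 replicate 1, and 1 without T1 replicate 2 or T4 replicate 2. In the ovary 0 passed without T1 replicate 1 or T4 replicate 2, and 1 without T1 replicate 2 or T4 replicate 1. In the liver 0 passed without T1 replicate 1 or T1 replicate 2, and the average gave between 5 and 10, with the lowest number without liver T4 replicate 2. CM003292.1:59221001-59222000 (4 common cytosines, 54 to 111 reads) was at 15.5% and 15.5% at T4 and at 85.7% and 57.3% at T1 in the pituitary. It was at 41.9% and 51.9% at T4 and at 81.6% and 85.9% at T1 in the ovary, and at 41.0% and 19.2% at T4 and at 81.1% and 53.3% at T1 in the liver. All T1 libraries were again above all T4 libraries, with a log2 odds ratio of −2.85 averaged over the tissues (adjusted p = 0.000383). CM003279.1:25485001-25486000 was at 15.7% and 30.4% at T4 and at 59.7% and 59.2% at T1 in the pituitary (−2.31, adjusted p = 0.0492).

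In the ovary, CM003300.1:32677001-32678000 was at 28.8% and 32.3% at T4 and at 62.3% and 62.1% at T1 (11 common cytosines, log2 odds ratio −1.91, adjusted p = 0.0225), against 4.02% to 6.25% in the pituitary and 8.75% to 16.5% in the liver. It borders the valley CM003300.1:32673001-32677000, which lies near the longest valley. CM003296.1:22546001-22547000 was at 51.0% and 45.2% at T4 and at 3.17% and 1.92% at T1 in the ovary (4.99, adjusted p = 0.0353), on 3 common cytosines and 43 to 66 reads only. In CM003282.1:60762001-60763000 replicate 1 of the ovary at T1 stood at 46.4% and replicate 2 at 2.84%, against 1.18% and 1.60% at T4. The pituitary of that tile was at 1.62% and 4.88% at T4 and at 39.0% and 47.0% at T1. The liver was at 1.94% at T4 replicate 1, had 0 methylated reads of 159 at T4 replicate 2 (which allows a level of up to 1.89%), and was at 50% and 30.6% at T1 (−6.01, adjusted p = 0.0388). T4 minus T1 was −39.7 percentage points in the pituitary and −39.3 in the liver, and the gap between the 2 ovary T1 libraries was wider than either.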

How the data were processed

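Whole-genome bisulfite libraries were made by the study from pituitary, ovary and liver DNA and sequenced on the Illumina HiSeq platform. Per the labels, the authors trimmed reads with Trim Galore 0.5, mapped them to ICSASG_v2 with BS-Seeker2 2.1.8 and Bowtie2, and removed duplicates with Picard. The deposited values are counts of reads and of methylated reads per CpG cytosine with at least 10 reads, 1 file per library. A C-to-T difference from the assembly is counted as unmethylated. Valleys were found with Python 3.11.15, numpy 2.4.6 and pandas 2.3.3. The sums by tile over cytosines listed in all 12 libraries (at least 3 per tile) entered the edgeR 4.0.16 test under R 4.3.3. Its model had 6 groups (6 residual degrees of freedom) and a common dispersion of 0.0232 estimated on 20000 tiles. The fit was also run on simulated tiles with known shifts at ovary T4 and no fish shared between tissues. That run does not measure how the p-values hold where fish are shared. A log2 odds ratio compares the odds of a methylated read, and adjusted p-values are Benjamini-Hochberg values from edgeR. As an alternative, limma 3.58.1 was run on log2 ratios of the counts with a pseudocount of 1. Other alternatives were all listed cytosines, at least 20 reads, at least 5 common cytosines, a replicate block and other thresholds of the rule. Each library was also left out in turn, and a fish block was fitted between tissues only. Tiles named are, for each comparison, the 3 valley tiles and 2 ending tiles with the smallest p that passed. Valleys named are the longest and the extremes of density, level and tissue difference. The rule, the members and the lists were chosen with earlier results of these data known. Gene lists were not applied, since no annotation of the assembly was used.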

Additional observations from a re-analysis of the deposited data

Results flagged for a closer look

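In 2 tissues 1 library stood apart from the other 3 in its summed level over the common cytosines of the valleys. Pituitary T1 replicate 2 was at 4.27%, above the other pituitary libraries, and liver T1 replicate 2 was at 5.05%, below the other liver libraries. In each case the gap to the nearest library was a larger share of the range than Dixon's limit for 4 libraries, a limit that chance passes in about 1 in 20 groups.

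The time points moved in opposite directions in different tissues in 2 of the named valley tiles, with every T4 library on the same side of every T1 library within each of these tissues. In CM003298.1:64500001-64501000 T4 minus T1 was 12.1 percentage points in the pituitary and −8.79 in the ovary. In CM003293.1:88528001-88529000 it was −41.2 points in the ovary, 4.58 in the pituitary and 4.39 in the liver. These differences between tissues were not tested.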

How the results depend on the processing

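The number of valleys and their total length follow the rule: 1687 valleys (6354 kb) with a shortest run of 3 tiles, 293 (1879 kb) with 5 tiles and 261 (1258 kb) with at least 10 cytosines per tile. Without 1 library at a time there were 550 to 584 valleys over 2826 to 3023 kb with a median length of 4 to 5 kb. Mean levels in the pituitary, ovary and liver were 4.83%, 5.94% and 6.15% at T4 and 4.95%, 5.81% and 5.92% at T1 with a threshold of 20%, and 3.04%, 3.64% and 4.51% at T4 and 3.29%, 3.60% and 4.31% at T1 with 10%. With at least 20 reads in every library they were 3.79%, 4.84% and 5.24% at T4 and 3.83%, 4.75% and 4.83% at T1. As a mean over valleys they were 4.32%, 4.82% and 5.42% at T4, with 4.48% in the pituitary and 4.74% in the ovary at T1. Over all listed cytosines they were 4.21% in the pituitary and 5.50% in the liver at T4, and 4.40% in the pituitary and 4.68% in the ovary at T1. Each of these settings kept the order of the tissues at both times. Leaving out 1 of the 2 libraries of a group only returns the level of the other. These levels were 3.99% to 4.01%, 4.61% to 4.71% and 5.37% to 5.38% at T4 and 4.03% to 4.27%, 4.66% to 4.68% and 5.05% to 5.42% at T1.

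The valley tiles that passed between T4 and T1 in the pituitary, ovary, liver and average numbered 0, 0, 0 and 5 with limma, and 0, 3, 0 and 3 with at least 20 reads, where 198 valley tiles could be tested. With at least 5 common cytosines 0 passed in the liver and 6 in the average, and over all listed cytosines 3 passed in the pituitary and 0 in the liver. Without 1 library they numbered 0 to 1, 0 to 6, 0 to 1 and 7 to 16, with the lone library of a group taken to vary like the others. Each named tile within a tissue lost its call in 3 to 8 of 7 to 9 alternatives, and none changed direction. Shares of all tiles are not given for the alternatives, whose counts also follow how many tiles could be tested. Of the 198 valley tiles tested with at least 20 reads, 40 passed for ovary minus liver, 48 for pituitary minus liver and 45 for pituitary minus ovary. In the main test 203, 264 and 188 of 1140 passed in these pairs. Without 1 library there were 155 to 182, 208 to 239 and 149 to 178 in these pairs, and the named tissue tiles kept their calls in every alternative that could be fitted. With the replicate number as a block, 2 valley tiles passed in the liver and 19 in the average. The number does not mark the same fish in all groups, and the correlation of same-numbered deviations was −0.0401 to 0.205. With the fish code as a block, 180, 230 and 146 passed between the tissues, and 171, 230 and 145 with the codes of the 2 ovary T1 libraries exchanged, since the labels differ on them. Of 3051 valley tiles, 1911 had too few common cytosines to be tested.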
